A study of Mus musculus with 8 samples.

Results

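The comparison concerned the epidermis, the outer epithelium of the skin, of mice labelled Ovol1/2 iDKO and of control mice at 52 DPI. It took every library labelled with that time, 2 iDKO and 2 control, which are 4 of the 8 libraries of the series. The abbreviations iDKO and DPI are kept as the labels write them, and the strain, the age of the mice, the gene parts removed and the promoter that drove the removal were not given in the sources used here. Skin was the source tissue of all libraries, and the epidermis was taken with trypsin. The labels call the libraries of a group biological replicates and number them 1 and 2. Each iDKO library was set beside the control library of its own number, which gave pair 1 and pair 2.

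The products of Ovol1 and Ovol2 are epithelial zinc finger proteins that act largely as transcriptional repressors. They are known for restraining genes of the epithelial-to-mesenchymal transition, Zeb1 among them, and for roles in the skin barrier, in hair follicles and in the control of keratinocyte proliferation and differentiation. The epidermis is built of basal keratinocytes, which sit on a basement membrane and divide, and of spinous, granular and cornified layers formed from them. It also holds resident immune cells, mainly Langerhans cells and, in mice, dendritic epidermal T cells.

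The control libraries held 24732179 and 13024905 counts and the iDKO libraries 27874977 and 14402046, and 17839 genes passed the filter on low counts. Libraries differed by number as well as by genotype. Reads on the second strand made up 49.9% of the counts assigned by strand in both replicate 1 libraries and 95.6% to 95.7% in both replicate 2 libraries. Log2 CPM (CPM being the count relative to library size, scaled by TMM) correlated at 0.986 within pair 1 and 0.957 within pair 2, but at 0.936 between the control libraries and 0.922 between the iDKO libraries. Xist was detected in all 4 libraries and Ddx3y, Uty, Kdm5d and Eif2s3y of the Y chromosome had 0 counts in each.

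The iDKO replicate 2 library stood apart in hair genes. The keratin genes Krt25, Krt27, Krt28, Krt35 and Krt71 of the inner root sheath and hair shaft were under 1 CPM in the other 3 libraries and at 7.39 to 81.3 CPM in this one. Krt71 was at 0.334 and 0.784 CPM in control, 0.879 CPM in iDKO replicate 1 and 81.3 CPM in iDKO replicate 2. Krt35 had 0 and 3 counts in control, 1 count in iDKO replicate 1 and 1100 counts in iDKO replicate 2. Krt32, a hair keratin of the same list, did not share this, at 4.37 and 4.86 CPM in control against 2.23 and 1.11 in iDKO. The 13 tested genes of a hair shaft and inner root sheath list summed to 39.1 and 30.3 CPM in control and to 36.1 and 364.6 CPM in iDKO. The same library had 84.4 CPM of Dcn, a dermal proteoglycan, against 0.627 to 1.93 CPM in the other 3, and 10.6 CPM of the globin gene Hbb-bs against 0 to 0.26 CPM. Values of pair 1 do not contain this library, and they are therefore given beside every result.

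The keratinocyte markers Krt5 and Krt14 were among the abundant transcripts of all 4 libraries, at 10651 to 17746 CPM for Krt5. The counts of the targeted genes were not lower in the libraries labelled iDKO. Ovol1 was at 62.7 and 157.2 CPM in control against 99.0 and 193.5 in iDKO, a log2 fold change of 0.41 (SE 0.77). Ovol2 was at 21.3 and 7.52 CPM in control against 22.3 and 9.16 in iDKO, a log2 fold change of 0.12 (SE 0.79). Counts summed over a gene would not reveal a deletion of part of it, so the genotype labels are unchecked by these values. Directions below are those of libraries by label.

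The test of all genes asked which transcripts differed between iDKO and control at this time. With 1 mean per group, edgeR's quasi-likelihood test called 0 of the 17839 genes (0%) at an adjusted p under 0.05, and 143 had an unadjusted p under 0.05. DESeq2 called 1 gene (0.00561%), Zeb1, and limma-voom called 0. Libraries of the same number were treated as paired, though the labels do not say that they were matched. With the replicate number as a block within time edgeR again called 0 genes, with 764 at an unadjusted p under 0.05. DESeq2 with the same block called 35 genes (0.196%), 23 of them higher (0.129%) and 12 lower (0.0673%) in iDKO. On simulated data this fit called more unchanged genes than its threshold allows, so the 35 may hold false calls. The 35 genes lay in the same direction in both pairs, and in 31 of them the iDKO and control libraries did not overlap. Over all tested genes 11.9% lay higher and 10.2% lower without overlap. The 35 were called from these same libraries by a fit that pairs them. Their shared direction and lack of overlap follow in part from that choice and are no further support.

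**Figure D1:**
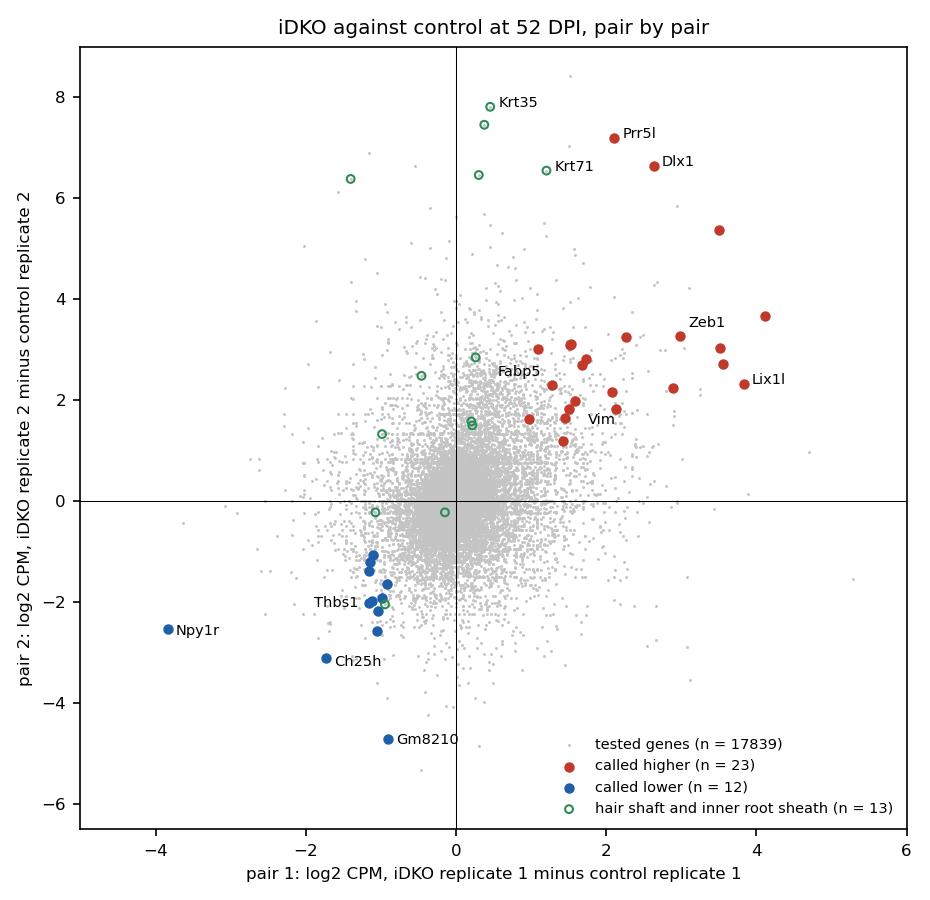
Difference in log2 CPM between iDKO and control for each of the 17839 tested genes, pair 1 on the x axis and pair 2 on the y axis. Red and blue points are the 23 higher and 12 lower genes called by DESeq2 with the replicate block, which lie at the upper right and lower left, and green circles are hair shaft and inner root sheath genes, of which 5 lie above 6 in pair 2 only.

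The pairs agreed in part. Of all tested genes 27.8% were higher and 30.4% lower in iDKO in both pairs, and 41.8% lay on opposite sides of control in the 2 pairs. Differences past 1.5-fold in both pairs were more often higher, at 5.49% of genes, than lower, at 2.29%. The log2 ratios of the 2 pairs correlated at 0.23 across genes, which are not independent replicates, and their SD was 0.54 in pair 1 and 0.93 in pair 2. The calls depended on both pairs. The direction of the 35 genes was the same without either pair, which follows from their lying the same way in both and is no further support. In edgeR 34 of the 35 kept their direction without control replicate 2, and 34 without iDKO replicate 2. Without the 52 DPI pair 1 the same DESeq2 fit called 152 genes, 15 of them among the 35, and without the 52 DPI pair 2 it called 2, 1 of them among the 35. Each of the 35 had an adjusted p of 1 under at least 1 other setting, and edgeR called none of them except without the filter on low counts, where it called 4 of them.

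Zeb1, a zinc finger repressor of epithelial genes and a driver of epithelial-to-mesenchymal transition, was at 2.08 and 2.04 CPM in control against 17 and 20.5 in iDKO. The iDKO libraries lay 8.2-fold above control in pair 1 and 10.1-fold in pair 2, with little spread within a group. Its log2 fold change was 3.19 (SE 0.60) by edgeR (adjusted p = 1.00) and 3.16 (SE 0.47) by DESeq2 with the block (adjusted p = 1.45e-07). DESeq2 without the block also called it (adjusted p = 0.0175). With the block and without the 52 DPI pair 2 its adjusted p was 0.28, at a log2 fold change of 3.01. Vim, the intermediate filament protein of mesenchymal cells that Langerhans cells and melanocytes also make, was at 53.3 and 88.7 CPM in control against 160.4 and 350.0 in iDKO. That is 3.01-fold in pair 1 and 3.94-fold in pair 2 (DESeq2 with the block, adjusted p = 0.0173).

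Zeb1 was the only one of 8 tested regulators of this transition that DESeq2 with the block called. Of the 8 genes, 2 were higher and 1 lower in both pairs. The other gene higher in both pairs, Snai1, stayed under 0.46 CPM in every library. Snai2 was lower in both pairs, at 91.5 and 36.9 CPM in control against 70.5 and 28.8 in iDKO, with overlap of the groups. Zeb2 lay on opposite sides of control in the 2 pairs, at 1.19 and 0.94 CPM in control against 1.04 and 1.31 in iDKO. Twist1 and Twist2 were under the filter on low counts. Among 17 tested mesenchymal effector genes 8 were higher and 2 lower in both pairs. Tnc, the matrix glycoprotein tenascin C, was at 39.4 and 51.1 CPM in control against 67.6 and 279 in iDKO. Mmp9, a gelatinase, was at 9.64 and 8.78 CPM in control against 18.9 and 16.2 in iDKO. Mmp3, a stromelysin, was lower, at 14.1 and 9.40 CPM in control against 8.57 and 1.37 in iDKO. Of this list only Vim was called by DESeq2 with the block.

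Several of the called genes that were higher in iDKO encode cytoskeletal or scaffold proteins. Fez1, a kinesin adaptor, was at 0.816 and 0.627 CPM in control against 10.5 and 4.58 in iDKO. Cep170, a centriolar protein, was at 10.6 and 11.5 CPM in control against 29.1 and 36.3 in iDKO. Ccdc88a, which encodes the actin-binding protein girdin, was at 11.5 and 11.2 CPM in control against 31.2 and 25.8 in iDKO. Iffo1, an intermediate filament family member, was at 1.52 and 1.41 CPM in control against 6.66 and 6.61 in iDKO. In these 4 genes the groups were far apart and the 2 libraries of a group lay close, apart from Fez1 in iDKO.

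A further set of the higher genes acts at membranes and in lipid metabolism. Flot2, which encodes the membrane raft scaffold flotillin 2, was at 57.6 and 24.0 CPM in control against 163.1 and 85.7 in iDKO (adjusted p = 6.39e-06, DESeq2 with the block). Each pair differed about alike for Flot2, 2.83-fold and 3.58-fold, while the level differed between numbers. Fabp5, the epidermal fatty acid binding protein, was at 56.9 and 95.2 CPM in control against 138.0 and 472.9 in iDKO. Pm20d1, a secreted enzyme of N-acyl amino acids, was at 1.56 and 4.31 CPM in control against 4.62 and 37.7 in iDKO. St6galnac6, a sialyltransferase, was at 2.34 and 1.80 CPM in control against 10.6 and 6.61 in iDKO. Enpp4, a membrane-bound ectonucleotidase, was at 0.371 and 1.18 CPM in control against 5.12 and 10.2 in iDKO.

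The other higher genes covered secreted proteins and nuclear factors. Pyy, peptide YY, was at 26.2 and 6.35 CPM in control against 75.5 and 55.5 in iDKO. Chil1, a chitinase-like secreted protein, was at 4.15 CPM in both control libraries and at 20.3 and 40.2 CPM in iDKO. Phc1, a Polycomb subunit, was at 2.41 and 2.04 CPM in control against 7.88 and 13.7 in iDKO. Fkbp14, an endoplasmic reticulum prolyl isomerase, was at 0.741 and 0.705 CPM in control against 6.06 and 3.66 in iDKO. Zcchc24 was at 4.49 and 2.51 CPM in control against 15 and 18.2 in iDKO. Lix1l was at 0.111 and 2.74 CPM in control against 2.70 and 14 in iDKO, with overlap. These genes were higher in iDKO in both pairs.

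Among the called genes, 3 were close to 0 in control, so counts are given in place of folds. The homeobox gene Dlx1 had 0 counts in both control libraries and 14 and 128 in iDKO. Prr5l, a component of mTOR complex 2, had 1 and 0 counts in control and 14 and 189 in iDKO. Scube1, a secreted and cell surface glycoprotein, had 0 and 1 counts in control and 28 and 102 in iDKO. In all 3 the larger count came from iDKO replicate 2, the library that also held hair transcripts, and whether the 2 are linked was not tested. Their levels in iDKO replicate 1 were 0.44, 0.44 and 0.879 CPM.

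The called genes that were lower in iDKO included secreted and matrix-associated signals. Thbs1, the matricellular protein thrombospondin 1, was at 896.9 and 1932 CPM in control against 400.1 and 475.5 in iDKO. Ccn1, a matricellular target of YAP signalling, was at 2237 and 1168 CPM in control against 1032 and 297.1 in iDKO. Igfbp3, an insulin-like growth factor binding protein, was at 938.9 and 627.6 CPM in control against 473.8 and 166.8 in iDKO. Epgn, the epidermal growth factor receptor ligand epigen, was at 71.6 and 96.5 CPM in control against 37.8 and 31.0 in iDKO. The control level of these 4 genes lay 1.89-fold to 2.24-fold above iDKO in pair 1 and 3.11-fold to 4.06-fold in pair 2. The groups overlapped in none of the 4, and the adjusted p of DESeq2 with the block was 0.0039 for Thbs1, 0.0438 for Ccn1, 0.0275 for Igfbp3 and 0.0146 for Epgn.

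Lipid mediators and receptors were also among the lower genes. Ptgs2, the inducible cyclooxygenase that makes prostaglandin precursors, was at 72.1 and 105.1 CPM in control against 34.7 and 17.5 in iDKO. Ch25h, which makes the oxysterol 25-hydroxycholesterol, was at 18.4 and 18.1 CPM in control against 5.50 and 2.03 in iDKO. Npy1r, a receptor for neuropeptide Y and peptide YY, was at 2.93 and 4.94 CPM in control against 0.126 and 0.785 in iDKO. Itgb6, the beta subunit of an integrin that activates latent TGF-beta, was at 55.4 and 23.9 CPM in control against 24.9 and 10.3 in iDKO. Pmaip1, the pro-apoptotic p53 target Noxa, was at 92.3 and 78.7 CPM in control against 42.8 and 37.4 in iDKO. Plcxd2 was at 26.4 and 26.9 CPM in control against 11.8 and 10.3 in iDKO. Tent5b was at 60.2 and 46.7 CPM in control against 29.3 and 10.2 in iDKO. Apart from Itgb6, whose 2 numbers differed in level, these genes did not overlap between the groups. Gm8210, a pseudogene, had 2 and 336 counts in control and 0 and 14 in iDKO. Its call rested on replicate 2 alone, and reads of near-identical genes cannot be told apart in these tables.

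**Figure D2:**
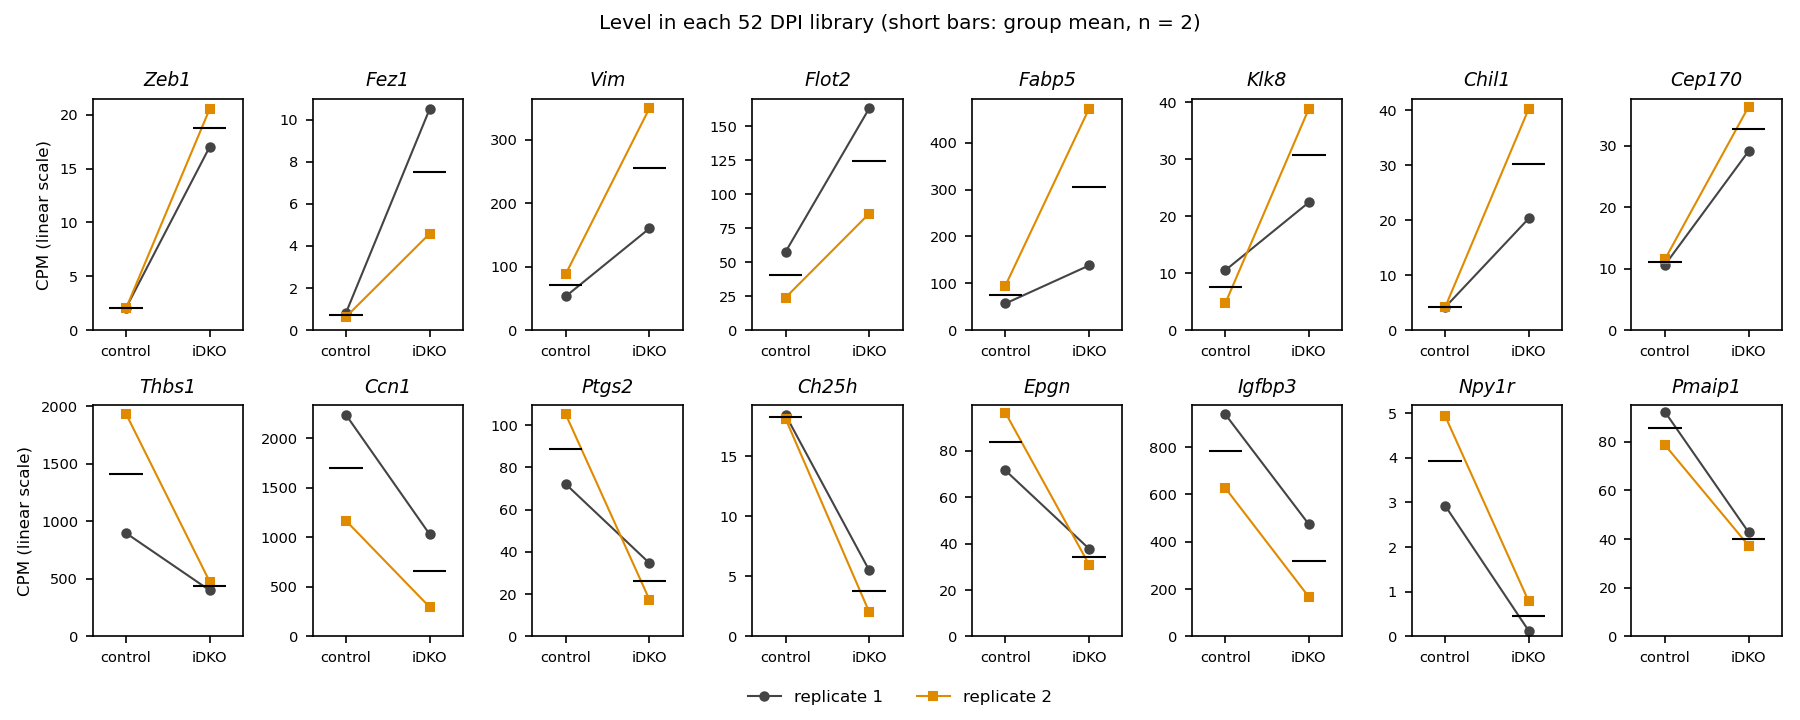
CPM (linear y axis) of 16 genes called by DESeq2 with the replicate block, in control and iDKO at 52 DPI, with lines joining libraries of the same number and short bars at the mean of 2 libraries. The upper 8 genes are higher and the lower 8 lower in iDKO in both pairs, and Flot2 shows a replicate gap within each group (57.6 against 24.0 CPM in control).

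Ranking by edgeR with the block gave nearly the same genes. The 12 genes per direction with the smallest p, taken from genes whose log2 CPM averaged 1 or more and whose pairs pointed the same way, held 3 that DESeq2 with the block did not call, all lower. Gnai1, a G protein subunit, was at 443.5 and 167.8 CPM in control against 250.7 and 62.3 in iDKO. Gpha2, a glycoprotein hormone subunit, was at 28.7 and 9.09 CPM in control against 16.4 and 3.79 in iDKO. Aknad1 was at 24.5 and 23.3 CPM in control against 13.2 and 7.59 in iDKO. The groups overlapped for Gnai1 and Gpha2 and not for Aknad1.

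The sequence upstream of the called genes was searched for the words that OVOL and ZEB factors are known to bind, since iDKO is labelled for the first and Zeb1 was higher. The 250 bases before each RefSeq start (GRCm38.p6) were read on both strands for CCGTTA, the OVOL core, and for CACCTG, the E-box bound by ZEB and Snail proteins. The 2 words do not overlap each other. CCGTTA occurred in 2.52% of 27025 genes with a promoter in the table and in 3.43% of the 11783 tested genes with one. It occurred in 2 of 17 called higher genes (11.8%), Enpp4 and Fez1, and in 0 of 9 called lower genes. CACCTG occurred in 19.3% of tested genes, in 3 of 17 higher genes (17.6%) and in 4 of 9 lower genes (44.4%), Ptgs2, Itgb6, Epgn and Igfbp3. A gene with several starts had several chances to hold a word. These counts are small, and a match is a description of letters and not of binding. Upstream sequences of 4 genes are shown, 2 with the OVOL word and 2 with the ZEB word, 5′ to 3′ on the gene's strand and with the word or its reverse complement in capitals.

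Enpp4, chr17:44105810-44106059, minus strand: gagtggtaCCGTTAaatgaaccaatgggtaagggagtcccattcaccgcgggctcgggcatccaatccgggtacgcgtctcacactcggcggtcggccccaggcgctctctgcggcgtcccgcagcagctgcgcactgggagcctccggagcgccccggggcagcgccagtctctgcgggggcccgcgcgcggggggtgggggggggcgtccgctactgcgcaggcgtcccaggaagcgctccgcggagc
Fez1, chr9:36832490-36832739, plus strand: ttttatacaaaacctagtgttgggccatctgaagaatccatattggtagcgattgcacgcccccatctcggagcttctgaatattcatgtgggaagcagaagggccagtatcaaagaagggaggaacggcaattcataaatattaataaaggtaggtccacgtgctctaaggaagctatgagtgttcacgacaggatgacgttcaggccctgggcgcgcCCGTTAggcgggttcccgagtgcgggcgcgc
Ptgs2, chr1:150099781-150100030, plus strand: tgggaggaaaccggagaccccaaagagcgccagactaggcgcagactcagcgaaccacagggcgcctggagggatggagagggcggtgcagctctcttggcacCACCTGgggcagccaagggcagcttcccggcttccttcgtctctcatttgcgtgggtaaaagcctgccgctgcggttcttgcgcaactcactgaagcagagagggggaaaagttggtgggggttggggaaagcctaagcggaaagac
Igfbp3, chr11:7213924-7214173, minus strand: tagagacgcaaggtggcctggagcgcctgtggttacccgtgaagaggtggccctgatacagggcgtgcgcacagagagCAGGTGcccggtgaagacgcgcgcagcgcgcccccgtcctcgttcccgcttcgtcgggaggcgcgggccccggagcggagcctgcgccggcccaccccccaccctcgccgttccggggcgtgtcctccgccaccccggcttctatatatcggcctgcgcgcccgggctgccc

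The word in the Enpp4 sequence began 242 bases before the start, that of Fez1 31 bases before the second of its starts in the table, that of Ptgs2 147 bases and that of Igfbp3 172 bases before. Enpp4 and Fez1, with the OVOL word, lay 7.3-fold to 13.8-fold higher in iDKO in the 2 pairs. The ZEB word stood before genes of both directions, St6galnac6, Prr5l and Scube1 being called higher and Ptgs2, Itgb6, Epgn and Igfbp3 lower.

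The results by gene group follow the layers of the epidermis and then the cells within it. Each group is described by how many of its tested members were higher or lower in iDKO in both pairs, against 27.8% and 30.4% of all tested genes, by how many lay without overlap, against 11.9% and 10.2%, and by its median log2 difference in each pair, which was 0.00 and -0.03 over all tested genes. The groups were not tested as sets. Called here means called by DESeq2 with the block on all libraries, unless another fit is named, and members named beyond the 4 with the smallest p in each list were chosen after their values were seen.

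Genes of the basal layer were lower in iDKO. Of 12 tested basal keratinocyte genes 11 were lower in both pairs and 0 higher, 9 of them without overlap, with a median log2 difference of -0.32 in pair 1 and -1.26 in pair 2. Itga6, the alpha subunit of the hemidesmosome integrin, was at 790 and 1082 CPM in control against 604 and 466 in iDKO. Lamb3, a chain of a basement membrane laminin, was at 830 and 710 CPM in control against 623 and 224 in iDKO. Itgb1, the beta subunit of collagen and fibronectin receptors, was at 408 and 344 CPM in control against 314 and 188 in iDKO. Pair 1 differed by less than pair 2 in each of these genes, with control levels 1.31-fold above iDKO for Itga6 in pair 1 and 2.32-fold in pair 2. None of the 12 was called by edgeR or by DESeq2 with the block. In bulk epidermis fewer cells of a type and less RNA per cell cannot be told apart.

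The exception in this list was Krt14, at 19370 and 11577 CPM in control against 19853 and 6661 in iDKO. The hair follicle stem cell genes Lgr5 and Cd34 showed the difference in pair 2 almost alone. Lgr5, a Wnt-associated receptor of follicle stem cells, was at 77.4 and 78.4 CPM in control against 69.8 and 20.2 in iDKO. Cd34, a surface marker of the follicle bulge, was at 188 and 207 CPM in control against 188 and 59.3 in iDKO. The list as a whole was split, with 4 of 15 members higher and 5 lower in both pairs. Tgfbi, a matrix protein induced by TGF-beta, was at 862 and 962 CPM in control against 665 and 291 in iDKO, and 7 of 16 TGF-beta pathway genes were lower in both pairs.

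Markers of the suprabasal layers showed no single direction. Of 13 tested spinous and granular genes 5 were higher and 3 lower in both pairs, and Krt1 and Krt10 overlapped between groups. Calm4, a calcium binding protein of differentiating keratinocytes, was at 171 and 257 CPM in control against 271 and 320 in iDKO. Tgm1, the main cross-linking enzyme of the cornified envelope, was at 2.85 and 7.29 CPM in control against 6.88 and 17.3 in iDKO. Tgm5, a related enzyme, was lower, at 239 and 210 CPM in control against 172 and 46.4 in iDKO.

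Of 18 tested cornified envelope genes 6 were higher and 4 lower in both pairs. Sprr4, a small proline-rich envelope precursor, was at 8.04 and 4.94 CPM in control against 23.1 and 33.9 in iDKO, 2.87-fold and 6.88-fold higher. Cdsn, the desquamation-linked adhesion protein corneodesmosin, was at 17.1 and 16.5 CPM in control against 34.5 and 23.6 in iDKO. Rptn, the envelope protein repetin, was at 0.371 and 0.47 CPM in control against 0.911 and 1.96 in iDKO. Flg2, a filaggrin family member, was lower, at 1.04 and 3.45 CPM in control against 0.754 and 0.262 in iDKO. Asprv1, the protease that processes filaggrin, was at 19.0 and 20.4 CPM in control against 35.7 and 38.4 in iDKO. Of 33 listed envelope genes 15 were under the filter on low counts.

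Proteases that act in desquamation, the shedding of the outermost cells, were listed with their inhibitors. Of 17 tested genes of this joint list, 8 of them kallikreins, 9 were higher in both pairs and 0 lower, 8 without overlap, and its median log2 difference was close in the 2 pairs, 1.03 and 1.08. Klk8 was called by DESeq2 with the block (adjusted p = 0.0219) and was at 10.5 and 4.70 CPM in control against 22.4 and 38.9 in iDKO. Klk5, which activates other kallikreins, was at 5.89 and 6.58 CPM in control against 13.1 and 31.3 in iDKO. Klk7, the chymotrypsin-like enzyme that cleaves corneodesmosin, was at 26.9 and 22.6 CPM in control against 92.7 and 433 in iDKO, 3.45-fold and 19.1-fold higher, and edgeR called it only without the filter on low counts (adjusted p = 0.0254). Klk6 was at 1.37 and 1.02 CPM in control against 7.60 and 9.29 in iDKO. Klk10 was at 14.7 and 11 CPM in control against 35.4 and 23.4 in iDKO. All 5 lay above control in both pairs and none overlapped.

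The kallikrein genes lie side by side on GRCm38 chromosome 7, with Klk13 from 43712567 to 43727534 and Klk5 from 43841971 to 43851181, both on the plus strand. Within this run Klk9 and Klk11 did not share the pattern of their neighbours. Klk9 was at 1.26 and 2.12 CPM in control against 2.67 and 1.64 in iDKO, and Klk11 was at 39.7 and 52.0 CPM in control against 46.4 and 41.5 in iDKO. Among inhibitors of these enzymes, Spink5, which encodes LEKTI, was at 32.9 and 93.0 CPM in control against 38.6 and 55.4 in iDKO. Cst6, an inhibitor of cathepsins and legumain, was at 615 and 249 CPM in control against 1260 and 1420 in iDKO. The groups overlapped for Spink5 and lay apart for Cst6.

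**Figure D3:**
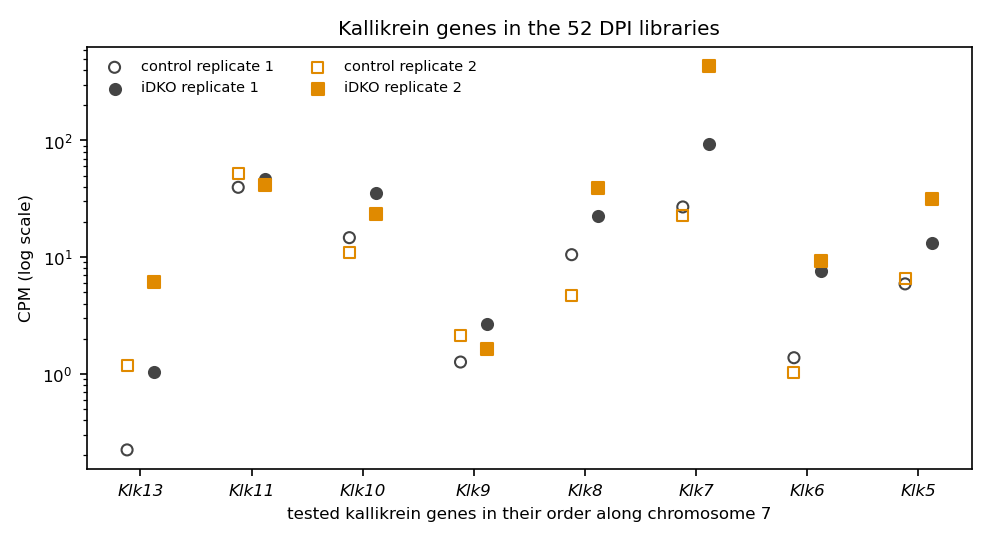
CPM (log y axis) of the 8 tested kallikrein genes in the order in which they lie on chromosome 7, with open symbols for control and filled symbols for iDKO, circles for replicate 1 and squares for replicate 2. Filled symbols lie above both open symbols for Klk10, Klk8, Klk7, Klk6 and Klk5, and overlap them for Klk13, Klk11 and Klk9.

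Genes of the barrier lipids, the ceramides and fatty acids between cornified cells, differed little as a group. Of 29 tested genes 14 were higher and 6 lower in both pairs, with medians of 0.14 in each pair. Pnpla1, which makes acylceramides, was at 11.6 and 9.95 CPM in control against 15 and 38.1 in iDKO. Ephx3, an epoxide hydrolase of the same pathway, was at 19.5 and 15.4 CPM in control against 30.2 and 34.1 in iDKO. Sult2b1, a cholesterol sulfotransferase, was at 15.5 and 15.8 CPM in control against 24.3 and 20.9 in iDKO.

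Genes of cholesterol synthesis were more often higher than lower, 11 against 1 of 22 in both pairs. Most differences were small, and the median was 0.02 in pair 1 and 0.39 in pair 2. Dhcr7, the enzyme that makes cholesterol from its 7-dehydro form, was at 60.0 and 56.0 CPM in control against 77.2 and 103 in iDKO. Of the genes of sebaceous glands 9 of 17 were higher and 2 lower in both pairs. Soat1, which esterifies cholesterol, was at 8.23 and 10.7 CPM in control against 18.5 and 26.9 in iDKO. Krt79, a keratin of the upper follicle and sebaceous duct, was at 1684 and 1447 CPM in control against 2373 and 5786 in iDKO. Mgst1, a microsomal glutathione transferase, was at 32.2 and 22.3 CPM in control against 60.9 and 112 in iDKO.

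Junction genes had group medians near 0. Of 14 desmosome genes 7 were lower and 2 higher in both pairs, of 9 adherens junction genes 4 were lower (3 without overlap) and 1 higher, and of 15 tight junction genes 3 were lower and 5 higher. Medians for desmosomes, adherens junctions and tight junctions lay between -0.17 and 0.27 in either pair. Cdh3, the P-cadherin of basal cells and follicles, was at 142 and 195 CPM in control against 88.7 and 141 in iDKO. Cdh1, E-cadherin, was at 952 and 942 CPM in control against 702 and 936 in iDKO. Dsc1, a desmosomal cadherin of upper layers, was higher, at 78.1 and 79.3 CPM in control against 107 and 199 in iDKO. Among epithelial transcription factors Grhl3 and Elf3, regulators of terminal differentiation, were higher without overlap. Grhl3 was at 56.7 and 48.3 CPM in control against 81.9 and 84.9 in iDKO, and Elf3 at 19.8 and 5.49 CPM in control against 32.0 and 28.2 in iDKO. Esrp1 and Esrp2, epithelial splicing regulators, overlapped between the groups.

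Keratins of activated skin differed between the pairs. Krt17 was at 1685 and 1214 CPM in control against 2087 and 5015 in iDKO. Krt6a was at 44.1 and 146 CPM in control against 71.5 and 316 in iDKO. Krt16 was at 88.7 and 150 CPM in control against 117 and 58.3 in iDKO, on opposite sides of control. Krt17 and Krt6a are also keratins of the hair follicle, and iDKO replicate 2, where both were highest, is the library with hair transcripts. Whether that library's makeup accounts for these levels was not tested.

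Transcripts of immune cells were higher in iDKO. Of 16 tested genes of Langerhans and dendritic cells 13 were higher and 1 lower in both pairs, 11 without overlap, with medians of 1.19 in pair 1 and 0.92 in pair 2. Cd207, the Langerhans cell lectin langerin, was at 28.8 and 47.6 CPM in control against 65.2 and 68.0 in iDKO. Ccr7, the receptor that guides dendritic cells to lymph nodes, was at 5.93 and 3.21 CPM in control against 13.8 and 12 in iDKO. Cd86, a costimulatory ligand, was at 3.89 and 4.39 CPM in control against 9.14 and 9.22 in iDKO. Fscn1, the actin bundling protein fascin that mature dendritic cells express, was at 28.3 and 18.5 CPM in control against 43.5 and 88.0 in iDKO. Epcam, which other epithelial cells also make, was at 324 and 211 CPM in control against 272 and 412 in iDKO and overlapped.

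Of 24 tested genes of antigen presentation and the interferon gamma response 12 were higher and 4 lower in both pairs, with 7 of the higher without overlap and medians of 0.57 in pair 1 and 0.06 in pair 2. Several of its MHC class II genes, chosen after their values were seen, were higher in both pairs. Cd74, the invariant chain, was at 205 and 140 CPM in control against 508 and 301 in iDKO, 2.48-fold and 2.15-fold higher. Ciita, the master activator of class II genes, was at 3.04 and 2.74 CPM in control against 7.03 and 5.17 in iDKO. H2-DMa, which loads peptides, was at 12.5 and 8.70 CPM in control against 27.5 and 19.5 in iDKO. H2-Aa, H2-Ab1 and H2-Eb1 lay above control in both pairs without overlap, while H2-DMb1 was higher in pair 1 only, at 16.8 and 16.8 CPM in control against 25.9 and 16.6 in iDKO. MHC class I genes did not share this, with H2-K1 at 2711 and 2000 CPM in control against 2678 and 1815 in iDKO. Ccl22, a chemokine of mature dendritic cells that attracts CCR4-bearing T cells, was at 8.75 and 6.11 CPM in control against 38.3 and 44.0 in iDKO. It lay 4.38-fold and 7.20-fold higher in the 2 pairs, without overlap.

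T cell genes were higher mainly in pair 2. Of 31 tested genes 28 were higher and 1 lower in both pairs, 25 without overlap, but the median was 0.33 in pair 1 and 2.31 in pair 2. Cd3e, a T cell receptor complex chain, was at 59.8 and 17.5 CPM in control against 75.2 and 99.6 in iDKO. Trdc, the constant region of the delta chain carried by dendritic epidermal T cells, was at 39.0 and 17.7 CPM in control against 48.4 and 86.1 in iDKO. Itgae, the integrin chain that holds T cells to E-cadherin, was at 46.3 and 21.7 CPM in control against 60.2 and 128 in iDKO. Cd69, a residency and activation marker, was at 12.1 and 5.01 CPM in control against 24.6 and 25.1 in iDKO, and differed more evenly, 2.03-fold and 5.01-fold. Control replicate 2 was the lowest of the 4 libraries for 29 of the 31 genes, so that the pair 2 ratio draws on a low control as well as a high iDKO library. The one gene lower in both pairs was Gata3, which keratinocytes also express, at 520 and 212 CPM in control against 456 and 133 in iDKO.

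Macrophage and monocyte genes were higher in 10 of 14 and lower in 0 in both pairs, all 10 without overlap. Their sum was 9880 and 5166 CPM in control against 8247 and 9586 in iDKO, lower in pair 1. Mrc1, Fcgr1, C1qb and C1qc of this list were under the filter on low counts. Ctss, the cathepsin of antigen presenting cells, was at 7.41 and 6.11 CPM in control against 17.7 and 17.6 in iDKO. Tyrobp, a signalling adaptor of myeloid cells, was at 4.0 and 2.90 CPM in control against 9.29 and 8.70 in iDKO. Adgre1, the antigen F4/80 that Langerhans cells share, was at 3.19 and 5.72 CPM in control against 7.54 and 10.4 in iDKO. C1qa stayed under 1.32 CPM in all libraries. Of 15 listed genes of neutrophils and mast cells 3 were tested.

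**Figure D4:**
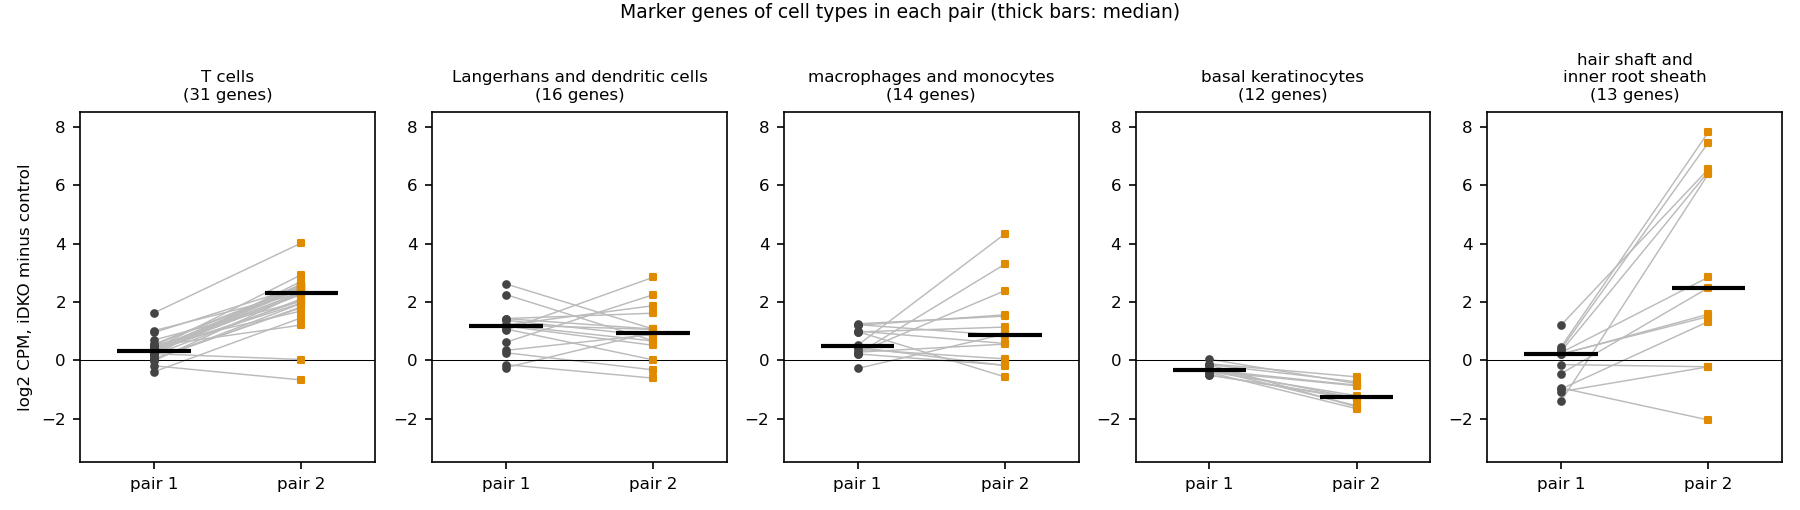
Difference in log2 CPM between iDKO and control in pair 1 and pair 2 for the tested markers of 5 cell types, each line 1 gene and each thick bar a median. Langerhans and dendritic cell genes have medians of 1.19 and 0.92, T cell genes of 0.33 and 2.31, basal keratinocyte genes of -0.32 and -1.26, and hair shaft genes lie high in pair 2.

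Interferon response genes were higher more often than lower, 15 against 2 of 23 in both pairs, with medians of 0.78 in pair 1 and 0.38 in pair 2. Bst2, an antiviral membrane protein, was at 8.82 and 7.21 CPM in control against 16.8 and 13.5 in iDKO. Ddx58, which encodes the RNA sensor RIG-I, was at 22.8 and 16.4 CPM in control against 34.9 and 37.5 in iDKO. Other members such as Oasl2, at 17.5 and 5.56 CPM in control against 31.4 and 2.88 in iDKO, were higher in pair 1 and lower in pair 2.

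Antimicrobial genes were higher in 6 of 11 and lower in 1 in both pairs. S100a8 and S100a9, the subunits of calprotectin, were at 0.816 and 0.548 CPM and at 0.408 and 0.47 CPM in control. In iDKO they were at 4.18 and 2.09 CPM and at 3.58 and 1.70 CPM. Defb6, a beta-defensin, was at 217 and 213 CPM in control against 319 and 711 in iDKO. The groups did not overlap for these 3 genes, and the S100 genes stayed at low levels.

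The type 17 response had no shared direction, with 5 of 15 higher and 7 lower in both pairs. Its cytokines were near the limit of detection. Il17a had 7 and 0 counts in control and 30 and 40 in iDKO, and Il17f was at 0.408 and 0.0784 CPM in control against 1.98 and 1.05 in iDKO. Ccr6, a receptor of cells that make these cytokines, was at 1.15 and 0.157 CPM in control against 1.73 and 4.58 in iDKO. Il23a, which sustains them, was lower, at 4.67 and 3.68 CPM in control against 2.32 and 0.981 in iDKO. Il13, a type 2 cytokine, was at 0.371 and 0.862 CPM in control against 0.722 and 6.02 in iDKO, and overlapped.

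Members of the interleukin 1 family were lower in 6 of 10 and higher in 1 in both pairs. Il33, an alarmin of keratinocyte nuclei, was at 155 and 136 CPM in control against 134 and 34.3 in iDKO. Il1a was at 3.97 and 1.96 CPM in control against 2.23 and 0.85 in iDKO. Il18 was the exception, at 0.927 and 1.10 CPM in control against 1.98 and 2.16 in iDKO.

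The Wnt ligands Wnt3, Wnt10a, Wnt10b and Wnt16, short-range signals in skin and hair follicles, were lower in both pairs. Wnt3 was at 180 and 106 CPM in control against 141 and 33.8 in iDKO, Wnt10a at 249 and 93.9 CPM in control against 194 and 29.9 in iDKO. Wnt16 was at 8.79 and 36.4 CPM in control against 3.67 and 11.5 in iDKO, and Wnt10b at 4.60 and 33.4 CPM in control against 3.30 and 17.7 in iDKO. The groups overlapped for these 4 because of the gap between numbers, while each iDKO library lay below its own control. In the joint Notch and Wnt list 10 of 21 genes were lower and 6 higher in both pairs.

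Immediate-early genes, which skin dissociation induces, were lower in 11 of 20 and higher in 2 in both pairs, with medians of -0.11 in pair 1 and -0.71 in pair 2. Jun was at 2537 and 2524 CPM in control against 2015 and 1486 in iDKO. Nr4a1 was at 1352 and 2686 CPM in control against 835 and 1390 in iDKO. Thbs1, Ccn1 and Ptgs2, called lower above, also respond to stress and serum. Their log2 differences were -1.164, -1.116 and -1.052 in pair 1 and -2.023, -1.975 and -2.583 in pair 2. These differences had the direction of the list medians and were larger. The part of tissue handling in their levels was not tested. Clock genes were lower in 9 of 16 and higher in 3. Arntl, which encodes BMAL1, was at 91.1 and 74.4 CPM in control against 72.8 and 47.0 in iDKO, and Npas2 at 39.2 and 32.1 CPM in control against 28.7 and 13.2 in iDKO.

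The p53 targets held Pmaip1, which was called, and Mdm2, the p53 ubiquitin ligase, at 88.6 and 95.6 CPM in control against 67.9 and 75.7 in iDKO. Cdkn1a overlapped, at 467 and 553 CPM in control against 439 and 557 in iDKO, and 10 of 19 targets were lower and 2 higher in both pairs. Cell cycle genes gave no group difference, with 6 of 26 higher, 7 lower and 0 without overlap. Glycolysis, NRF2, oxidative phosphorylation and integrated stress response genes had medians between -0.06 and 0.17 in either pair.

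**Figure D5:**
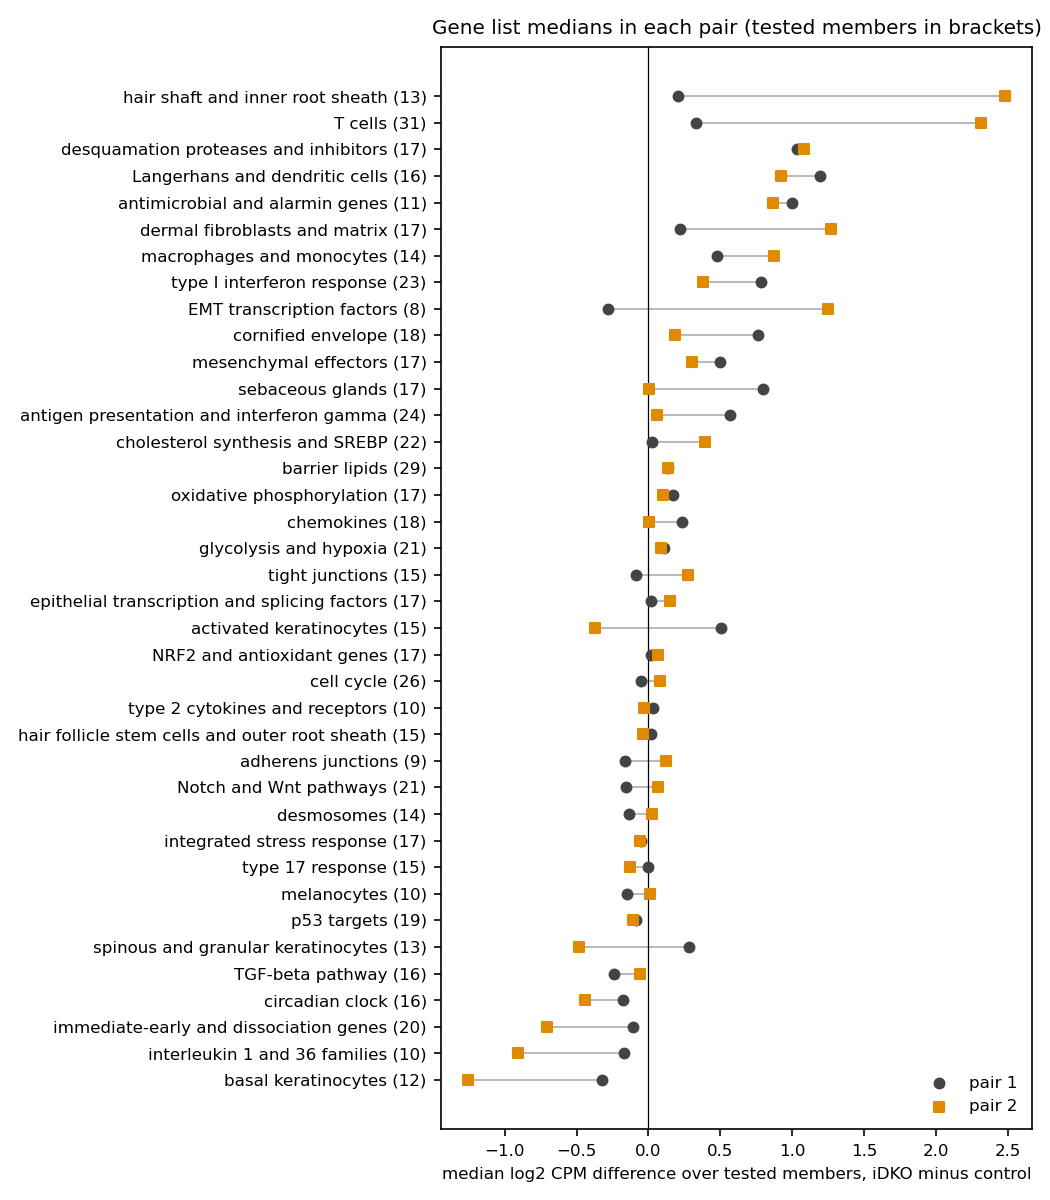
Median difference in log2 CPM between iDKO and control over the tested members of 38 gene lists, in pair 1 (circles) and pair 2 (squares), ordered by the mean of both. Desquamation proteases and inhibitors (1.03 and 1.08) and Langerhans and dendritic cell genes (1.19 and 0.92) lie high in both pairs, basal keratinocyte genes (-0.32 and -1.26) low in both, and hair shaft and T cell genes far higher in pair 2.

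Markers listed for cells outside the epidermis varied in level. Endothelial and pericyte genes were tested in 4 of 11 cases, skeletal muscle genes in 5 of 10 and adipocyte genes in 2 of 9. The muscle list summed to 5.02 to 6.80 CPM in the 4 libraries. Erythroid genes summed to 0.628 to 1.37 CPM in 3 libraries and to 18.3 CPM in iDKO replicate 2. Fibroblast genes were higher in both pairs in 6 of 17 and lower in 3, with a median of 0.22 in pair 1 and 1.27 in pair 2. The fibroblast list summed to 1679 and 1519 CPM in control and to 1926 and 541 CPM in iDKO, most of it from Postn, the matrix protein periostin, at 1499 and 1247 CPM in control against 1743 and 303.7 in iDKO. The endothelial and pericyte list summed to 98.7 and 174.7 CPM in control and to 118.5 and 51.1 CPM in iDKO, mostly from Cspg4, which encodes the proteoglycan NG2, while Pecam1, Flt1 and Vwf were at 2.62 CPM or less. Col1a1 was at 1.97 and 2.90 CPM in control against 2.32 and 9.09 in iDKO. Melanocyte genes were higher in 3 and lower in 4 of 10.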

How the data were processed

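RNA-seq of mouse epidermis was analysed for the 4 libraries at 52 DPI, with the 4 at 25 DPI entering the fits to estimate the spread. The values the authors deposited are raw counts per gene for 54838 genes, unstranded and per strand. Trizol RNA and a Clontech SMART-seq v4 kit gave the libraries, per the labels' protocols. The submitters' processing notes name STAR 2.5.2a, Trimmomatic 0.35, DESeq2 1.24.0 and FastQC 0.11.9, and the builds GRCm38 and mm10, with settings not given in the sources used here. Unstranded counts were used, so reads of a gene and an overlapping antisense gene, or of near-identical copies, cannot be told apart. Symbols of 54809 genes and coordinates came from GENCODE M21 (GRCm38).

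Genes were tested with edgeR 4.0.16 (filterByExpr, TMM, 1 mean per group, 8 libraries, 4 residual degrees of freedom). P values were Benjamini-Hochberg adjusted over all tested genes and called under 0.05. With 1 mean per group they measure the spread between the libraries of a group. With the replicate block within time they measure how far the iDKO minus control difference varies between same-numbered pairs. That fit has 2 residual degrees of freedom, shared by both times. DESeq2 1.42.0, limma-voom (limma 3.58.1) and fits with a replicate block were alternatives, and scripts were tested on simulated data, where DESeq2 with the block called more unchanged genes than its threshold allows and the other fits run there did not. Deviations of replicates 1 and 2 correlated at 0.395 to 0.793 for each of 6 group pairs, groups of different times among them. Libraries of 1 number were therefore treated as paired, though a difference between numbers is not a match of animals. CPM are scaled by TMM, and log2 CPM have a prior count of 2.

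Named genes were the targets, up to 15 calls per direction, 12 per direction by edgeR with the block and up to 4 per list by its p. Further calls and members were named after their values were seen, and some results are not reported here. Members, lists and tests were chosen with earlier results of these data known.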

Additional observations from a re-analysis of the deposited data

How the results depend on the processing

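With 2 libraries per group, calls depended on the test, while directions depended little on it for most named genes. The count of 0 genes called by edgeR stayed at 0 with limma-voom, with DESeq2 size factors, with the replicate block within time or shared by both times, with the 52 DPI libraries alone with or without that block, and with second-strand counts for replicate 2. DESeq2 without the block called 1 gene, edgeR with no filter on low counts 25, DESeq2 with the replicate block within time 35, and the same fit on second-strand counts 34. That DESeq2 fit called 145 genes without the 25 DPI pair 1, 73 without the 25 DPI pair 2, 152 without the 52 DPI pair 1 and 2 without the 52 DPI pair 2. Leaving out 1 library gave 0 calls in every edgeR fit and 0 to 25 in DESeq2, most without iDKO 52 DPI replicate 1. Where leaving out a library leaves an arm with 1 library, that library is assumed to vary like the other groups. The fits that leave out a pair, the DESeq2 fits that leave out a library and the DESeq2 fit on second-strand counts were chosen after seeing the data. The cause of these differences was not tested.

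Many of the named genes were chosen for a small p with the replicate block, some also for the same direction in both pairs. Signs kept follow in part from that choice. Of 149 named genes followed through 31 alternatives, 116 kept the sign of their log2 fold change in each. Leaving out 1 library turned the sign in 29, with these ranges: Cdkn1a (-0.22 to 0.12), Col1a1 (-0.067 to 1.90), Dcn (-0.68 to 6.09), Esrp1 (-0.38 to 0.51), Esrp2 (-0.10 to 0.41), Gata3 (-1.48 to 0.48), Gm8210 (-11.35 to 2.57), Gpha2 (-2.33 to 0.17), H2-DMb1 (-0.027 to 0.633), H2-K1 (-0.39 to 0.19), Hbb-bs (-5.66 to 5.41), Klk11 (-0.24 to 0.16), Klk9 (-0.043 to 0.79), Krt1 (-1.17 to 0.41), Krt10 (-1.15 to 0.45), Krt14 (-1.23 to 0.37), Krt25 (-3.737 to 7.195), Krt35 (-1.76 to 12.84), Krt6a (-0.41 to 2.15), Oasl2 (-2.02 to 1.64), Ovol1 (-0.15 to 1.235), Ovol2 (-0.68 to 1.07), Pecam1 (-0.182 to 0.514), Postn (-2.189 to 0.351), Snai2 (-1.18 to 0.44), Spink5 (-0.99 to 0.53), Wnt10a (-2.54 to 0.26), Wnt10b (-2.52 to 1.203) and Zeb2 (-0.063 to 0.32). DESeq2 with the replicate block turned Hbb-bs (-0.225) and Oasl2 (-0.016), on second-strand counts -0.222 and -0.015, and without the 25 DPI pair 2 -0.307 and -0.012. Without the 52 DPI pair 1 it turned Cdh1 (0.001), Cdkn1a (0.017), H2-DMb1 (-0.005), Klk9 (-0.363) and Oasl2 (-0.942). Without the 52 DPI pair 2 it turned Cspg4 (0.251), Dcn (-1.265), Epcam (-0.278), Esrp2 (-0.006), Hbb-bs (-5.515), Klk11 (0.20), Krt1 (0.58), Krt14 (0.01), Krt16 (0.374), Pecam1 (-0.139), Postn (0.191), Spink5 (0.203) and Zeb2 (-0.221). limma-voom turned Hbb-bs (-0.406).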

Other observations

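Further genes set iDKO replicate 2 apart from the other 3 libraries. Without a filter on low counts edgeR's quasi-likelihood test called 25 genes, 24 of them higher, and 22 were over 5 times higher in that library than in any other at 52 DPI. Of the 25 genes 4 were tested members of the hair shaft and inner root sheath list. Padi3, also on that list but under the filter on low counts in the main fit, is a hair follicle deiminase that modifies trichohyalin. It had 0 counts in the other 3 libraries and 245 in iDKO replicate 2. Lrat, which esterifies retinol, had 8 and 2 counts in control, 32 in iDKO replicate 1 and 1270 in iDKO replicate 2. Aldh1a3, which makes retinoic acid, had 11 and 4 counts in control and 8 and 604 in iDKO. Gjb2, the gap junction protein connexin 26, had 111 and 122 counts in control and 152 and 4398 in iDKO. Cdh6, a classical cadherin, had 2 and 1 counts in control and 7 and 387 in iDKO. The call of these genes rests on 1 library and was chosen for mention after its values were seen.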
